A study of Mus musculus with 16 samples.

Results

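The comparison described here sets pre-B cells stimulated for 1.5 h against the same kind of cells stimulated for 0.5 h. Its members are 8 of the 16 samples of the series, which are 4 sequencing lanes of each of 2 libraries out of 4. The cells came from Blnk-/- KO mice and carried a retroviral BLNK-ERt2 construct that the labels call tamoxifen inducible, so both sides lacked the endogenous adaptor, overexpressed the fusion and were stimulated. They differed in the time since stimulation, 0.5 h or 1.5 h. The other libraries of the series, an unstimulated control and a 5 h time point with the same genotype and construct, are given below only as levels beside the 2 compared. The dose of the inducer, the age of the mice and the number of animals or cultures behind a library are not stated. There is 1 library per time and its lanes are technical repeats, so no test between the times was possible and no p-value is given.

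BLNK is the adaptor that couples Syk, the kinase downstream of the pre-B cell receptor, to calcium and MAP kinase signalling. Fusion to a modified oestrogen receptor domain keeps such an adaptor inactive until tamoxifen is added. Signalling through antigen receptors is known to induce immediate early genes within minutes, without new protein synthesis. Their messenger RNAs are short-lived, and their products include transcription factors of the EGR, FOS, JUN and NR4A families as well as phosphatases and RNA-binding proteins that limit the response. Later waves include genes of growth, such as those for making ribosomes, many of which are known targets of MYC.

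The 0.5 h library held 33864004 exon reads and the 1.5 h library 32631061, of which 84.4 and 84.5% were unique. Counts were scaled to counts per 1000000 exon reads (CPM), so that 3 reads, the limit that a count of 0 allows, correspond to 0.0886 and 0.0919 CPM. Among 14 measured genes of 15 pre-B cell markers, the summed level was 12734 CPM at 0.5 h and 11821 CPM at 1.5 h. The summed level of T and NK cell markers was 81.9 and 79.4 CPM (5 of 18 measured at 1 CPM or more, 7 at 0 reads in both libraries), that of myeloid markers 82.2 and 71.8 CPM (5 of 18 measured, 1 at 0 reads), and that of erythroid and megakaryocyte markers 13.9 and 13.6 CPM (2 of 15 measured, 2 at 0 reads). Stromal and endothelial markers summed to 604 and 553 CPM, with 3 of 15 measured and 6 at 0 reads. Of the 3, Acta2 had 0.413 and 1.44 CPM and 2 reached 5 CPM, so nearly all of this sum lay on 2 genes. Exon reads of Blnk stood at 3806 and 3601 CPM and those of Esr1, whose ligand-binding part such fusions carry, at 108 and 109 CPM. In bulk RNA, fewer cells of a type and less RNA per cell cannot be told apart.

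A gene was called different when its ratio, after 1 CPM was added to both levels, was at least 2-fold and its higher level at least 5 CPM. Of 9499 genes that reached 5 CPM in either library, 18 were higher at 1.5 h (0.189%) and 21 were lower (0.221%). With a limit of 1.5-fold, 167 were higher (1.76%) and 175 lower (1.84%). The median log2 ratio of all 11008 genes at 1 CPM or more was -0.01, with quartiles of -0.15 and 0.13, and 47.4% of them lay above 0. The lower genes were led by immediate early factors and included feedback phosphatases and an RNA decay factor, and the higher genes included a subunit of RNA polymerase I and other genes of ribosome formation. Of the 21 lower genes, 16 had the highest of their 4 levels at 0.5 h, and 13 were lower at 1.5 h than in the control library. Of the 18 higher genes, 17 had the highest of their 4 levels at 1.5 h and were lower again at 5 h. The choice of the genes fixes the order of 0.5 h and 1.5 h and favours the higher of these as the highest of the 4. These counts were not set against a share over all genes, and nothing is read from them. Folds printed below divide the CPM values themselves, and their exact 95% intervals cover counting error only.

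**Figure D1:**
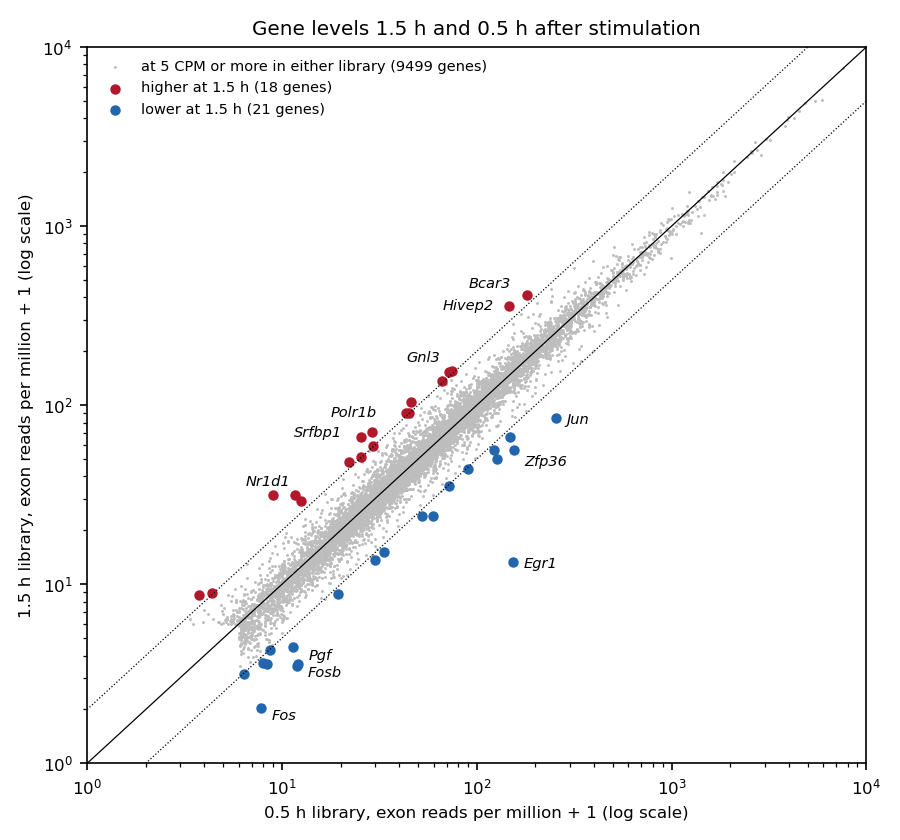
Each point is a gene, with its level in the 0.5 h library on the horizontal axis and in the 1.5 h library on the vertical axis, both as CPM plus 1 on log scales. The solid line marks equal levels and the dotted lines a 2-fold difference. Most of the 9499 genes follow the solid line, the 21 lower genes (blue) lie under it with Egr1 farthest away, and the 18 higher genes (red) lie above the upper dotted line, farthest from it Gm8399 and Nr1d1 with log2 ratios of 1.82 and 1.44.

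The lane values of each of the 39 genes called at 2-fold did not overlap between the libraries, as the plot of lane levels shows. The same held for 46.7% of the 9499 genes at 5 CPM or more and for 46.5% of those not called. The called genes were chosen by the ratio of the summed lanes, so nothing is read from their count. Lanes of 1 library share their cells and their RNA, so this speaks only to sequencing. Over all genes with at least 20 reads, unique reads varied between lanes as counting alone gives (chi-square per degree of freedom 0.995 at 0.5 h and 1 at 1.5 h), and total reads slightly more (1.3 and 1.27).

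**Figure D2:**
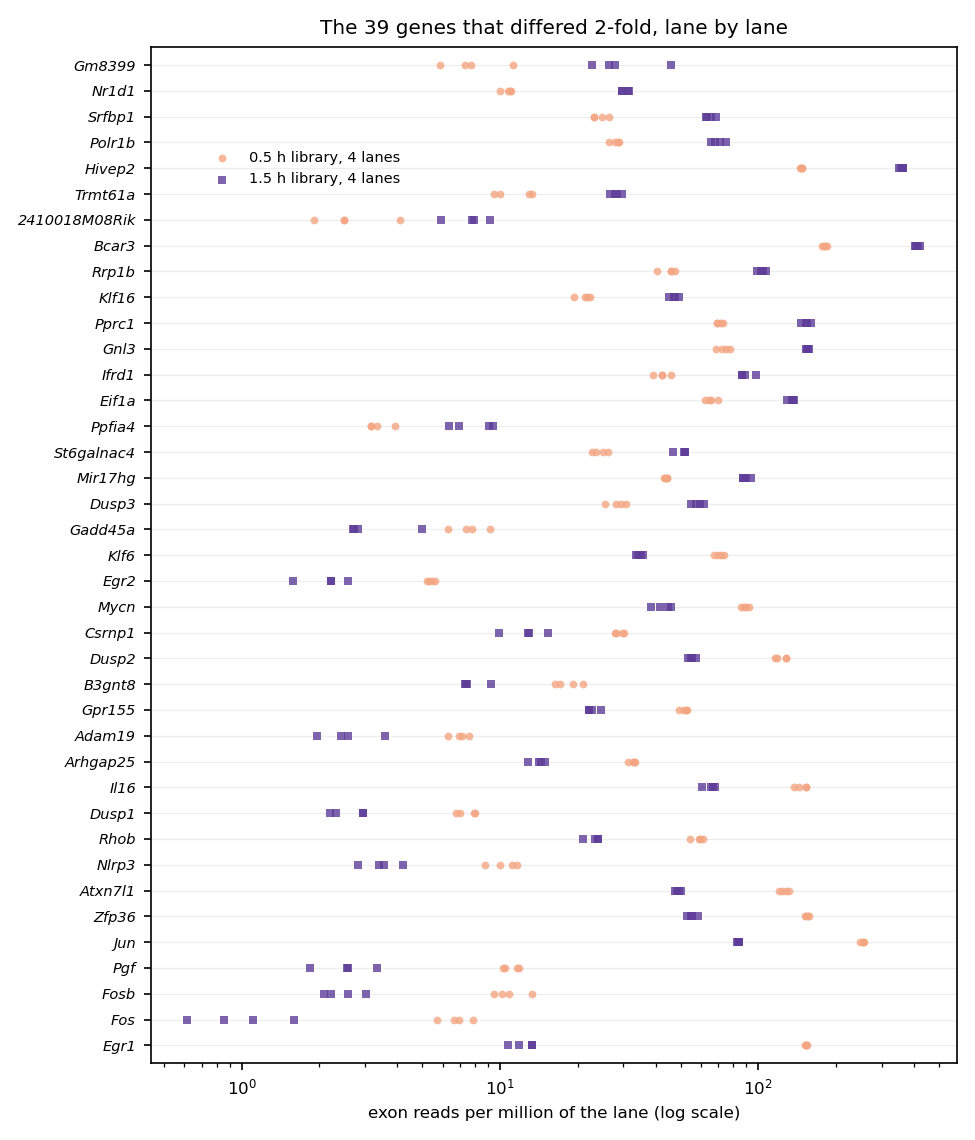
The level of each of the 39 called genes in each lane, as CPM of the lane on a log scale, with the 4 lanes of the 0.5 h library as circles and those of the 1.5 h library as squares. Genes are ordered by their ratio, from Egr1 at the bottom to Gm8399 at the top, and in each row the circles and squares are apart.

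Egr1 (chr18:34859823-34864984 in mm10), a zinc finger transcription factor and a standard marker of MAP kinase signalling, differed most. Its lanes held 155, 153, 152 and 153 CPM at 0.5 h and 13.3, 10.7, 11.8 and 13.3 CPM at 1.5 h. The 1.5 h level was 12.5-fold lower (interval 11.3 to 13.8), and the levels in the control, 0.5, 1.5 and 5 h libraries were 1.77, 153, 12.3 and 3.61 CPM. Egr1 at 1.5 h therefore still stood above both the control and the 5 h library. Egr2, its relative, had 5.4 and 2.15 CPM, a 2.52-fold lower level (interval 1.9 to 3.37), against 0.145 CPM in the control library. Egr3, the third member measured, went from 6.67 to 7.45 CPM, with an interval of the ratio (0.927 to 1.34) that includes 1.

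The AP-1 genes were split in the same way. Fos (chr12:85473890-85477273), which pairs with JUN proteins, had 7.85, 6.66, 5.69 and 6.96 CPM in the lanes at 0.5 h and 1.11, 0.851, 0.615 and 1.59 CPM at 1.5 h, a 6.52-fold lower level (interval 4.53 to 9.64). At 1.04 CPM it was back near its level in the control library, 0.898 CPM. With 5 CPM added in place of 1, which weighs most on low levels, its call ended. Fosb (chr7:19302721-19310045), its paralogue, lay between 9.49 and 13.3 CPM in the lanes at 0.5 h and between 2.09 and 3.04 CPM at 1.5 h, a 4.41-fold lower level (interval 3.46 to 5.68). Jun (chr4:95049034-95052222) had 248, 255, 254 and 257 CPM at 0.5 h and 84.1, 84.2, 82.4 and 83.8 CPM at 1.5 h. That level was 3.03-fold lower (interval 2.9 to 3.17) but still above the 49.8 CPM of the control library. Junb and Jund were not called, at 94.4 and 75.6 CPM and at 165 and 144 CPM. Fosl2 stood at 9.12 and 9.62 CPM and Atf3, a related stress-induced factor, at 5.2 and 5.36 CPM.

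Of 24 listed immediate early transcription factors, 21 were measured at 1 CPM or more, and 18 reached 5 CPM. Of these 18, 6 were called lower, against 0.221% of all genes tested, and none was called higher, against 0.189%. The median log2 ratio of the 21 was -0.19, with 9 above 0. Beside the 5 named above, Klf6, a Krüppel-like factor, was lower with 70.7 and 34.6 CPM (2.04-fold, interval 1.9 to 2.19). Klf2 had a ratio past the limit on levels of 1.77 and 0.276 CPM, below the 5 CPM floor. Nr4a1, an orphan nuclear receptor induced by antigen receptors, was just outside the limit. Its lanes held 27.4 to 32.2 CPM at 0.5 h and 13.6 to 15.5 CPM at 1.5 h, a 2.01-fold lower level (interval 1.8 to 2.25) that the added 1 CPM takes below 2-fold. Nr4a3 and Srf went the other way. Nr4a3 had 4.55 and 7.57 CPM, and Srf, which binds CArG boxes of immediate early promoters, had 18.2 and 28.7 CPM, with 26.3% of its reads unique.

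The promoters of the lower genes are shown because several of these genes are known to be switched on through short response elements close to their start sites. In RefSeq (GRCm38.p6, the assembly that mm10 names), 33 of the 39 called genes had a promoter entry, 20 of the 21 lower genes among them. Egr1 had none. The 250 bases before each start were searched on both strands for the E-box CACGTG, the cAMP response element TGACGTCA, the AP-1 site TGANTCA, the EGR site (GCGGGGGCG or GCGTGGGCG), the CArG box and the NF-kB site. Printed below are the bases of these windows that lie before the gene as the deposited tables place it, for 4 of the 5 lower genes with at least 2 different motifs in 1 window, with every match of the 6 motifs in capitals. The Fosb window holds an NF-kB site and an EGR site, that of Zfp36 an EGR site and a CArG box, that of Dusp1 a cAMP response element and an E-box, and that of Dusp2 an E-box and an EGR site. None of these matches overlap.
Fosb (chr7:19310046-19310295, minus strand): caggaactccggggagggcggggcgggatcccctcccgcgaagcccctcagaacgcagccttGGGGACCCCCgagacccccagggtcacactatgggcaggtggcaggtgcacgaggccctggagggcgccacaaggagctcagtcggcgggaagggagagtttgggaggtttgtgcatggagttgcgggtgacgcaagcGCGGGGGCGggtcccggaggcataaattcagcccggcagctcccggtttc
Zfp36 (chr7:28379256-28379478, minus strand): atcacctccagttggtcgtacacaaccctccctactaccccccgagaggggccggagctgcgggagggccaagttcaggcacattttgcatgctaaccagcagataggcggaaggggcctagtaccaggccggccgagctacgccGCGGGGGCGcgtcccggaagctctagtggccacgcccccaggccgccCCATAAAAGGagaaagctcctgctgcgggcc
Dusp1 (chr17:26508520-26508722, minus strand): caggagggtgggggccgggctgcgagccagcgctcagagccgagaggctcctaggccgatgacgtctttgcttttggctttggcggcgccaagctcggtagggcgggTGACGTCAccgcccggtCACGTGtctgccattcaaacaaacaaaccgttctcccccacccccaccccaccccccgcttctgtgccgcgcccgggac
Dusp2 (chr2:127335909-127336158, plus strand): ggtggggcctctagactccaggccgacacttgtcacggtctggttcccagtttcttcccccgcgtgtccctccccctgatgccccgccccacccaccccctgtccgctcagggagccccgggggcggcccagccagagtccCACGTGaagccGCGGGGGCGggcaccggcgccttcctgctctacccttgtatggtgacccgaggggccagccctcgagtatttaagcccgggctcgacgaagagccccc

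CArG boxes were found in promoters of 2 of the 20 lower genes that had an entry (10%), Zfp36 and Egr2, against 1.14% of all genes at 5 CPM or more and 1.62% of all genes in the table. EGR sites were found for 3 of the 20 (15%), Fosb, Zfp36 and Dusp2, against 6.68 and 3.47%. NF-kB sites were found for 5 of the 20 (25%), against 5.17 and 4.46%, and E-boxes for 5 (25%), against 10.7 and 6.86%. AP-1 sites were found for 3 of the 20 (15%), against 4.55 and 7.82%. A cAMP response element was found for 1 (5%), against 3.34 and 1.77%. A gene counted if any of its windows matched. The 20 lower genes had 38 windows, against 9087 for 7116 genes at 5 CPM or more. By window, the shares were 13.2% against 8.9% for E-boxes, 13.2% against 4.34% for NF-kB sites and 7.89% against 3.73% for AP-1 sites. They were 7.89% against 5.67% for EGR sites, 2.63% against 2.8% for cAMP response elements and 13.2% against 0.946% for CArG boxes. Among the 13 higher genes with an entry, CArG boxes and AP-1 sites were found for none. The shares over genes at 5 CPM or more were 1.14 and 4.55%. E-boxes were found for 2 of the 13 (15.4%), against 10.7%. The cAMP response element, the EGR site and the NF-kB site were found for 1 each (7.69%), against 3.34, 6.68 and 5.17%. For 9 of the 20 lower genes no window held a match to any of the 6: Arhgap25, Atxn7l1, B3gnt8, Gadd45a, Gpr155, Jun, Mycn, Pgf and Rhob. A match is a string of letters in this window and was not tied to binding of a factor, and the sets are too small for their shares to be compared.

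Zfp36 (chr7:28376784-28379255), the RNA-binding protein tristetraprolin, which marks AU-rich messages for decay, had 152, 153, 157 and 156 CPM in the lanes at 0.5 h and 55.2, 58.3, 53 and 54.9 CPM at 1.5 h. The later level was 2.79-fold lower (interval 2.65 to 2.95) and close to the 47.6 CPM of the control library. Its relative Zfp36l1 was just outside the limit with 396 and 199 CPM, with only 5% of its reads unique. Zfp36l2 had 527 and 362 CPM. Of 17 measured genes of the mRNA decay list, Zfp36 was the 1 called, against 0.221% of all genes tested called lower. Of the 17, 5 lay above 0 and the median log2 ratio was -0.08. Btg2, an antiproliferative deadenylase cofactor, stood at 234 and 189 CPM.

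Among genes of negative feedback on MAP kinases, 2 phosphatases were called lower. Dusp1 (chr17:26505590-26508519), a nuclear MAP kinase phosphatase, had 6.76 to 7.97 CPM in the lanes at 0.5 h and 2.19 to 2.96 CPM at 1.5 h, a 2.85-fold lower level (interval 2.22 to 3.68) whose call ended when 5 CPM was added in place of 1. Dusp2 (chr2:127336159-127338376), a phosphatase of activated lymphocytes, had 116, 128, 118 and 128 CPM at 0.5 h and 53.6, 54.9, 57.6 and 55.2 CPM at 1.5 h (2.21-fold lower, interval 2.09 to 2.34). Its levels in the control and 5 h libraries were 35.2 and 32.3 CPM, so the 1.5 h library lay between them and the peak. Dusp6 and Dusp5, which act on ERK, were not called, with 84.4 and 48.9 CPM and with 125 and 75.2 CPM. Dusp16, which acts on JNK and p38, had 36.1 and 64.5 CPM, a 1.79-fold higher level (interval 1.67 to 1.92). Dusp3, a small phosphatase outside this list, was called higher with 28.4 and 58.3 CPM (2.05-fold, interval 1.9 to 2.22). Of 19 measured feedback genes, 18 reached 5 CPM, of which 2 were called lower, against 0.221% of all genes tested, and none higher, against 0.189%. Of the 19, 9 lay above 0 and the median log2 ratio was -0.09.

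Among other immediate early genes, 19 were measured, 15 reached 5 CPM and 3 were called lower, against 0.221% of all genes tested. Rhob (chr12:8497763-8499985), a small GTPase of endosomes, had 54.4 to 61.2 CPM in the lanes at 0.5 h and 21.0 to 24.0 CPM at 1.5 h (2.54-fold lower, interval 2.33 to 2.76). Csrnp1 had 28.9 and 12.7 CPM, with 11.3% of its reads unique, and Gadd45a, a growth arrest and DNA damage gene, had 7.65 and 3.31 CPM. These 2 calls were less firm. That of Csrnp1 ended when only unique reads were used, and Gadd45a, whose exons share 19.1% of their bases with a transcript on the opposite strand, lay only just past the limit and lost its call under other scalings and with unique reads. Ier2 (97.0 and 49.6 CPM), Apold1 (19.5 and 10.1 CPM) and Phlda1 (68.4 and 38.2 CPM) were lower without reaching the limit. Per1, also a clock gene, had 75.8 and 122 CPM. Cd69, the early activation antigen of lymphocytes, was level at 54.3 and 52.6 CPM. The median log2 ratio of the list was -0.20, with 6 of the 19 above 0.

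**Figure D3:**
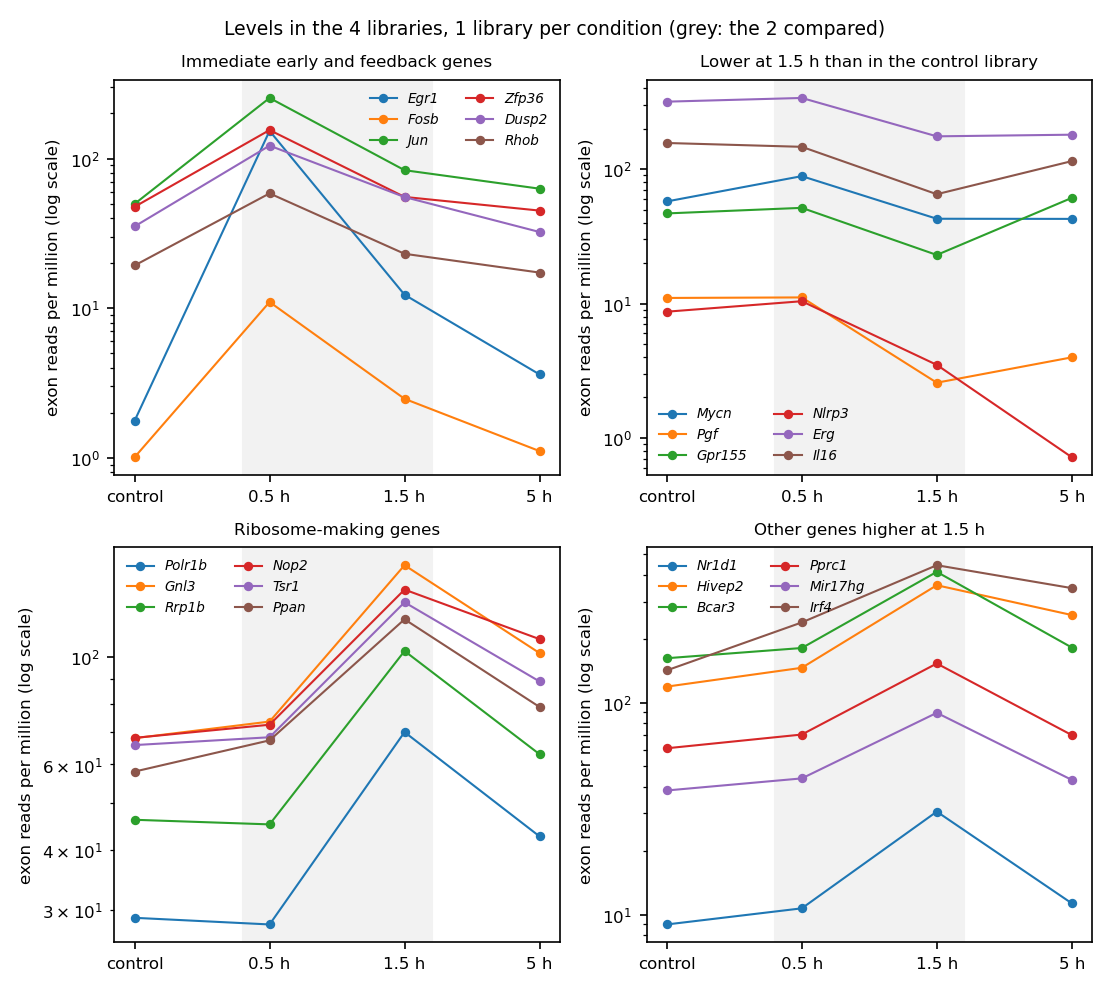
Levels of 24 genes in the control, 0.5, 1.5 and 5 h libraries, as CPM on log scales, in 4 panels of 6 genes, with the 2 libraries compared on grey. Each point is 1 library. The immediate early and feedback genes peak at 0.5 h, and the ribosome biogenesis genes and the other higher genes peak at 1.5 h.

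A further group of lower genes stood at 0.5 h less than 1.5-fold above the control level, or below it. Pgf (chr12:85166639-85177296), placental growth factor, had 10.3 to 11.8 CPM in the lanes at 0.5 h and 1.84 to 3.33 CPM at 1.5 h, a 4.3-fold lower level (interval 3.39 to 5.52), and 11.0 CPM in the control library. Gpr155, a lysosomal membrane protein, had 51.6 and 23.0 CPM (2.25-fold lower, interval 2.06 to 2.45), with 46.9 CPM in the control and 61.2 CPM in the 5 h library, so that the 1.5 h library was the lowest of the 4. Nlrp3, an inflammasome sensor, had 10.4 and 3.49 CPM (2.97-fold lower, interval 2.4 to 3.7) and 0.716 CPM at 5 h, and its call, too, ended with 5 CPM added. Arhgap25, a GTPase-activating protein for Rac, had 32.5 and 14.1 CPM, with 36.5 CPM in the control library. B3gnt8, a glycosyltransferase, had 18.4 and 7.85 CPM, with 23.7 CPM in the control library, so it was already lower at 0.5 h. Its exons share 18.1% of their bases with Bckdha on the other strand. The calls of Arhgap25 and B3gnt8 also ended with 5 CPM added.

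Atxn7l1, Il16 and Adam19 were also called lower, with 126 and 49.1 CPM, 147 and 65.2 CPM, and 7.0 and 2.64 CPM. Only 41.1, 19.2 and 49.5% of their reads were unique, and with unique reads alone the calls of Il16, a secreted chemoattractant, and Adam19, a membrane protease, ended while that of Atxn7l1 remained. Stard5, on the other strand, shares 15.3% of the exon bases of Il16. Mycn (chr12:12936096-12941914), a MYC family member, had 85.9 to 92 CPM in the lanes at 0.5 h and 38.4 to 46.1 CPM at 1.5 h, a 2.08-fold lower level (interval 1.95 to 2.22). Without lane 1 of the 1.5 h library its ratio fell short of the limit.

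Myc itself did not differ by this rule. Its lanes held 910.1, 939, 907 and 935 CPM at 0.5 h and 880.4, 880.2, 874 and 867 CPM at 1.5 h, against 293 CPM in the control and 341 CPM in the 5 h library. The ratio was 0.949 (interval 0.934 to 0.964). Myc therefore stood high in both libraries compared, in contrast to Egr1. Of 12 measured genes of the MYC and MAX network, Mycn was lower, against 0.221% of all genes tested, and none was higher, against 0.189%. Of the 12, 5 lay above 0 and 7 below, and the median log2 ratio was -0.18. The MYC antagonists Mxd3, Mxd4, Mxi1 and Mxd1 had log2 ratios of -0.54, -0.51, -0.50 and -0.41. Mnt and Mga of the same list are not described, so nothing is read for antagonists as a class. Max, the common partner, had 155 and 195 CPM.

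Genes for making ribosomes were higher at 1.5 h as a group. All 50 listed genes of ribosome biogenesis and RNA polymerase I were measured. Of these, 49 had a log2 ratio above 0, against 47.4% of all genes, and the median was 0.40 against -0.01. A higher level of 1.5-fold was passed by 13 (1.76% of genes tested) and one of 2-fold by 2 (0.189%). Polr1b (chr2:129100995-129126594), the second largest subunit of RNA polymerase I, which transcribes ribosomal RNA, had 28.9, 27.8, 28.7 and 26.5 CPM in the lanes at 0.5 h and 67.7, 71.3, 75.3 and 65.8 CPM at 1.5 h. The later level was 2.5-fold higher (interval 2.32 to 2.7), with 28.9 CPM in the control and 42.6 CPM in the 5 h library. Gnl3 (chr14:31012434-31019089), the nucleolar GTPase nucleostemin, had 68.8 to 78.0 CPM at 0.5 h and 153 to 157 CPM at 1.5 h (2.1-fold higher, interval 2.01 to 2.21). Both genes were nearly level between the control and 0.5 h and were highest at 1.5 h.

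The next genes of this list were Tsr1, a factor of small subunit maturation (68.3 and 129.9 CPM), Nop2, a methyltransferase of ribosomal RNA (72.5 and 138 CPM), Ppan, of large subunit processing (67.3 and 119.8 CPM), and Nop58, a core protein of box C/D snoRNPs (102 and 174 CPM). The abundant nucleolar proteins differed less, with Ncl at 1226 and 1557 CPM and Npm1 at 1206 and 1295 CPM. Nop10 alone lay below 0, at 102 and 99.2 CPM. At 5 h the group was mixed, since Polr1b, Gnl3, Tsr1 and Ppan were lower than at 1.5 h while Ncl (1819 CPM), Npm1 (1629 CPM) and Mybbp1a (506 CPM against 429.6 CPM at 1.5 h) were higher. Outside the list, 3 called genes have roles in the same process or close to it. Rrp1b, a nucleolar protein of ribosomal RNA processing, had 45.1 and 103 CPM (2.28-fold higher, interval 2.15 to 2.43), Trmt61a, which methylates transfer RNA, had 11.5 and 28.1 CPM, and Eif1a, of translation initiation, had 65.4 and 135 CPM. They were chosen after their values were seen and add nothing to the list's count. E-boxes, the sites that MYC and MAX bind, were found in the 250 bases before the start of 2 of the 54 promoters of the list (3.7%), against 8.9% of promoters of all genes at 5 CPM or more, and a missing match says nothing of MYC.

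Other lists of growth and supply were shifted less. Of 32 genes of nucleotide, folate and polyamine synthesis, 23 lay above 0 (median 0.12). All 32 reached 5 CPM and none was called, against 0.189% of all genes tested called higher and 0.221% lower. Amd1, of polyamine synthesis, had 61.5 and 111 CPM, and Ppat, of purine synthesis, had 58.8 and 94.1 CPM. In the list of ATF4 stress and amino acid supply, 20 of 26 lay above 0 (median 0.11), among them the arginine transporter Slc7a1 (143 and 217 CPM) and Atf4 (314 and 422 CPM), while Ppp1r15a, a phosphatase subunit of the stress response, had 50.3 and 26.7 CPM. Only 4 of 20 genes of glycolysis and glucose uptake lay above 0 (median -0.17). In that list the hexokinase Hk2 had 85.3 and 126 CPM and the glucose transporter Slc2a1 had 197 and 125 CPM.

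Mir17hg (chr14:115042879-115046727), the host transcript of the miR-17 to miR-92a cluster, is a known MYC target and was called higher. Its lanes held 43.0 to 44.5 CPM at 0.5 h and 87.3 to 93.4 CPM at 1.5 h, a 2.04-fold higher level (interval 1.92 to 2.17), with 38.5 CPM in the control and 43.2 CPM in the 5 h library. Without lane 1 of the 1.5 h library the ratio missed the limit. The reads measure the host RNA, not the mature miRNAs, since the rows of the hairpins held 0 reads in all libraries. The principal mature sequences encoded in it, from RefSeq (GRCm38.p6), are printed 5′ to 3′ with the seed, bases 2 to 8, in capitals. They fall into 4 seed groups, of which miR-17 and miR-20a share 1 and miR-19a and miR-19b another.
miR-17-5p: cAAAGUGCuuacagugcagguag
miR-20a-5p: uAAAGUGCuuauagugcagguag
miR-18a-5p: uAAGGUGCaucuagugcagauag
miR-19a-3p: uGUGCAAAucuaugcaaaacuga
miR-19b-3p: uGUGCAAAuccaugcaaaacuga
miR-92a-3p: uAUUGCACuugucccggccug

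Hivep2 (chr10:13966379-14151376), a large zinc finger protein that binds kappaB-like sites, was the most changed of the B lineage transcription factors. Its lanes held 145, 146, 147 and 148 CPM at 0.5 h and 356, 364, 350.4 and 363 CPM at 1.5 h, a 2.45-fold higher level (interval 2.37 to 2.53), and the 5 h library held 259 CPM. Its relative Hivep1 had 43.4 and 68.9 CPM. Irf4 (a factor of pre-B cell differentiation that promotes light chain recombination) missed the limit with 234 to 247 CPM in the lanes at 0.5 h and 438 to 454 CPM at 1.5 h, a 1.86-fold higher level (interval 1.81 to 1.91). The control library held 142 CPM of Irf4 and 119 CPM of Hivep2. Ikzf3, the Ikaros family member Aiolos, had 127, 183 and 232 CPM at 0.5, 1.5 and 5 h. On the lower side, the ETS factor Erg had 339.9 and 176 CPM, just outside the limit, and Ikzf1 had 462 and 360.1 CPM. Of 34 measured factors, 12 lay above 0 and the median was -0.11.

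Nr1d1 (chr11:98767932-98775333), the clock repressor REV-ERBα, had 9.98 to 11.0 CPM in the lanes at 0.5 h and 29.6 to 31.6 CPM at 1.5 h, a 2.87-fold higher level (interval 2.54 to 3.25). The 8.98 CPM of the control and 11.3 CPM of the 5 h library were close to the level at 0.5 h. Of its exon bases, 8.55% lie within exons of Thra on the opposite strand. In the circadian list, 11 of 12 measured genes lay above 0 (median 0.21), including the repressors Per1 (75.8 and 122 CPM) and Per2 (19.9 and 31.2 CPM). The exception was Arntl, the clock activator BMAL1, with 28.0 and 13.5 CPM, a 2.06-fold lower level (interval 1.84 to 2.32) that the added 1 CPM takes just under the limit.

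The remaining higher genes came from no single list. Bcar3 (chr3:122419780-122530180), an adaptor of integrin signalling, had 177 to 184 CPM in the lanes at 0.5 h and 405 to 424 CPM at 1.5 h (2.29-fold higher, interval 2.22 to 2.36), and 182 CPM at 5 h. Pprc1, a coactivator of growth-regulated mitochondrial genes, had 70.7 and 153 CPM (2.17-fold higher, interval 2.06 to 2.28) and 70.3 CPM at 5 h. Both were thus back at the 0.5 h level by 5 h. Srfbp1, an SRF-binding protein, had 24.4 and 65.1 CPM, Klf16 had 21.2 and 47.2 CPM, Ifrd1 had 42.5 and 89.9 CPM, and St6galnac4, a sialyltransferase, had 24.4 and 50.5 CPM. Ppfia4, a liprin, was the exception among the 18 in being higher still at 5 h, with 3.4, 7.94 and 9.04 CPM at 0.5, 1.5 and 5 h. The predicted genes Gm8399 and 2410018M08Rik were called higher on reads of which 0.0785 and 22.7% were unique, so their identity is uncertain.

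Nfkbid and Nfkbiz, which encode nuclear IkappaB proteins that modulate NF-kB target genes, and Tnfaip3, which restrains NF-kB signalling, had 64.3 and 32.2 CPM, 56.6 and 36.8 CPM, and 24.8 and 15.8 CPM, while the subunit genes Nfkb2 and Relb had 62.6 and 95.1 CPM and 13.2 and 19.8 CPM. Of the 20 measured NF-kB and NFAT targets, 7 lay above 0 (median -0.10). Of these 20, 19 reached 5 CPM and none was called, against 0.189% of all genes tested called higher and 0.221% lower. The secreted factors did not move together. Tnf had 16.9 to 21.2 CPM in the lanes at 0.5 h and 9.71 to 10.1 CPM at 1.5 h, a 1.94-fold lower level (interval 1.7 to 2.23). The chemokine Ccl3 was level, at 8.39 and 7.81 CPM. Ccl4, its neighbour in function, had 1.41 to 2.14 CPM at 0.5 h and 3.69 to 4.82 CPM at 1.5 h, a 2.51-fold higher level (interval 1.83 to 3.48) under the 5 CPM floor. Osm and Tgfb3 had 14.8 and 7.39 CPM and 20.5 and 10.3 CPM. Of 18 measured cytokines and chemokines, 15 reached 5 CPM. Pgf and Il16 were called lower, against 0.221% of all genes tested, and none was called higher, against 0.189%. The median log2 ratio of the 18 was -0.26.

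FoxO factors and their targets, genes that PI3K signalling holds down, were shifted to lower levels. None was called, against 0.221% of all genes tested called lower and 0.189% higher. Of 34 measured genes, 32 had a log2 ratio below 0, against 52.6% of all genes, the median was -0.35, and 7 of 30 at 5 CPM or more were lower by over 1.5-fold (1.84% of genes tested). Foxo1, the factor that drives Rag expression and B cell differentiation, had 149.9 to 174 CPM in the lanes at 0.5 h and 96.3 to 103 CPM at 1.5 h, a 1.62-fold lower level (interval 1.56 to 1.7). Its lanes did not overlap, as held for 46.7% of genes at 5 CPM or more, which speaks only to sequencing. The control library held 170.2 CPM of Foxo1. Ccng2, an atypical cyclin, had 192 and 111 CPM, Sesn1 had 61.0 and 38.0 CPM, Pik3ip1, an inhibitor of PI3K, had 87.9 and 57.6 CPM, and Cdkn1b, the cell cycle inhibitor p27, had 201 and 137 CPM. Of the 32 genes below 0, 22 were higher at 5 h than at 1.5 h, and 9 of them stood at 5 h at or above their 0.5 h level, among them Ccng2, Cdkn1b and Pik3ip1 at 209, 225 and 104 CPM. Foxo1 was not among the 9, at 118 CPM, nor was Sesn1, at 57.2 CPM. The recombinase genes Rag1 and Rag2 had 3.4 and 1.59 CPM and 7.59 and 3.74 CPM, with 8 and 21% of their reads unique, and the Rag1 lanes overlapped.

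Targets of IL-7 and STAT5 included Pim1 (265 and 154 CPM) and Pim2 (80.1 and 44.7 CPM), survival kinases, and Socs3 (7.91 and 3.59 CPM) and Cish (115 and 71.6 CPM), inhibitors of cytokine signalling, all lower without a call. The survival gene Bcl2l1 had 87.1 and 53.2 CPM, and Il7r 90.5 and 79.4 CPM. Of the 26 measured, 9 lay above 0 (median -0.11). The D cyclins differed little, with Ccnd2 at 102 and 134 CPM and Ccnd3 at 685 and 608 CPM. The 7 chains of the pre-B cell receptor had log2 ratios between -0.25 and 0.02, with Ighm at 5473 and 4998 CPM and Cd79a at 1674 and 1407 CPM. Among receptor-proximal genes, the phosphatase Ptpn6 (SHP-1) had 242 and 407 CPM, Syk had 374 and 271 CPM and Pik3cd had 1423 and 909.7 CPM. Of the 39 measured genes of that list, 36 reached 5 CPM and none was called. Over all genes tested, 0.189% were called higher and 0.221% lower, so a count of none says little for a list of this size.

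Reads of a gene outside its annotated exons, mostly introns, were counted separately and did not enter the rule. They made up 15.8% of gene reads at 0.5 h and 16.4% at 1.5 h. Among 8893 genes with at least 20 such reads in either library, the median ratio of 1.5 h to 0.5 h was 1.05, 60% of genes had a ratio above 1 and 40% below 1, and 8.7% were higher and 4.12% lower by at least 1.5-fold. Of the 15 called higher genes with enough such reads, 14 had a ratio above 1 and 11 were at least 1.5-fold higher (median 1.97). Of the 15 called lower genes, 14 were below 1 and 11 at least 1.5-fold lower (median 0.5). These reads come from the same cells and libraries as the exon reads and are no replicate of them. Part of them may lie on transcripts of the other strand, since the strand of counting is not stated.

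By direction the exceptions were Gpr155 and Dusp3. Several other called genes had an interval that included 1, among them Zfp36 with 82 and 70 reads (ratio 0.886, interval 0.635 to 1.23). Arhgap25 (0.871, 0.73 to 1.04), Adam19 (0.623, 0.278 to 1.34) and Klf16 (1.05, 0.778 to 1.42) were others. Gpr155 had 287 and 335 reads outside exons, a ratio of 1.21 (interval 1.03 to 1.42), against its 2.25-fold lower exon level. Dusp3 had 207 and 167, a ratio of 0.837 (interval 0.679 to 1.03), against a higher exon level. The ratio for Nr1d1, 1.54 with all reads, was 1.04 with unique reads alone. At the other end, reads outside exons were 3.82-fold higher for St6galnac4 (94 and 346), 3.53-fold for Rrp1b (203 and 690), 3.41-fold for Polr1b (128 and 420) and 2.13-fold for Bcar3 (4312 and 8858).

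For several genes the reads outside exons and the exon reads differed to unlike extents between the libraries. Egr3 had 61 and 10 such reads, 5.88-fold fewer at 1.5 h (interval 2.99 to 12.9), while the interval of its exon ratio includes 1. Nr4a1 had 126 and 29, 4.19-fold fewer (interval 2.78 to 6.5), against 2.01-fold in exons. Myc had 2336 and 1380, a 1.63-fold lower value (interval 1.53 to 1.74) with exon reads near their 0.5 h level. Irf4 showed the reverse, with 1604 and 1630 reads outside exons (ratio 1.05, interval 0.984 to 1.13) and a 1.86-fold higher exon level. Lef1 had 3044 and 6457 (2.2-fold higher), against 404 and 486 CPM in exons, and 672 CPM in the 5 h library. Cdk6 had 1717 and 3098 (1.87-fold higher), against 90.4 and 113 CPM in exons and 196 CPM at 5 h. For Blnk these reads were 1.84-fold fewer at 1.5 h (6505 and 3404, interval 1.77 to 1.92), while the exon reads were nearly level. Exon reads of Blnk may include those of the BLNK-ERt2 construct. They were not told apart from reads of the Blnk-/- locus, so the 2 measures of this gene may cover different transcripts.

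**Figure D4:**
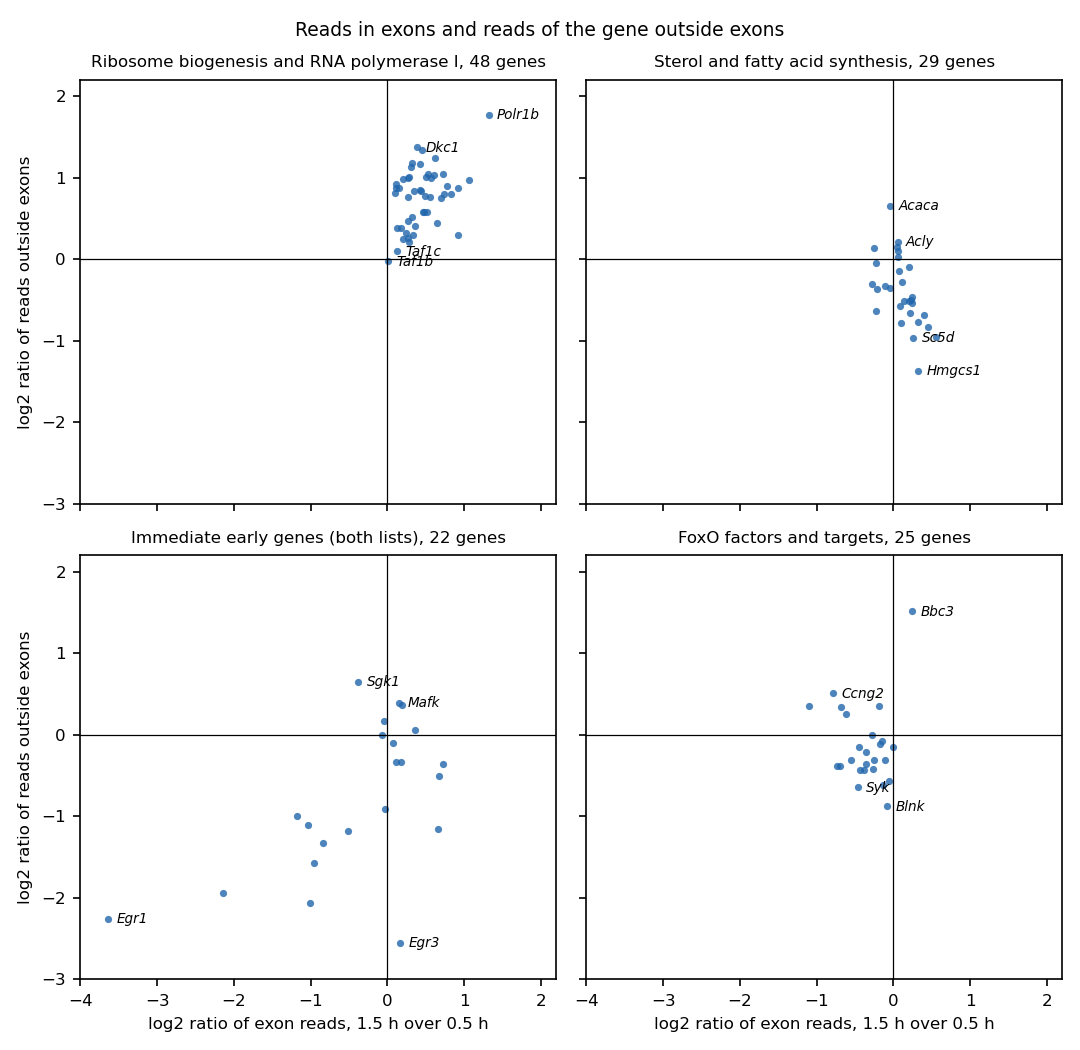
Log2 ratios of 1.5 h over 0.5 h for exon reads (horizontal) and reads outside exons (vertical), 1 dot per gene with at least 20 reads outside exons in either library and at least 1 in both, for 4 sets of genes. Ribosome biogenesis genes lie in the upper right, most sterol genes in the lower right, and FoxO factors and targets mostly in the lower left. In the immediate early panel Egr3, Egr1, Nr4a1 and Fosb lie low on the vertical axis, and of these only Egr3 has no lower exon ratio.

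Whole lists differed between the measures as well. For ribosome biogenesis, the ratio of reads outside exons was above 1 in 47 of 48 genes, against 60% of all genes. It was at least 1.5 in 31 of the 48, against 8.7% of all genes, with a median ratio of 1.77 against 1.05. In exons, 13 of the 50 passed 1.5-fold, and the median, there on a log2 scale, was 0.40 against -0.01. Dkc1, the pseudouridine synthase of telomerase and snoRNPs, had a 2.59-fold higher value outside exons and a 1.31-fold higher exon level. Genes of sterol and fatty acid synthesis were higher in exons (21 of 29 above 0, median log2 ratio 0.10) but lower outside them. There 23 of 29 had a ratio below 1, against 40% of all genes, and the median ratio was 0.725, against 1.05. Hmgcs1, an early enzyme of the mevalonate pathway, had 351 and 441 CPM in exons but 613 and 229 reads outside them, 2.58-fold fewer (interval 2.21 to 3.02), and its exon level at 5 h was 189 CPM. Cyp51 had 294 and 431 CPM in exons, and reads outside them 1.94-fold fewer, with 229 CPM in exons at 5 h. Of 17 genes of SRF and the actin cytoskeleton, 10 lay above 0 in exons and 14 below 1 outside them (median 0.732), including Srf itself with 58 and 25 reads. In the FoxO list, 19 of 25 genes were below 1 (median 0.807), and Ccng2, with 135 and 185 reads, was 1 of the 6 above it.

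The limit of the call divides a continuous range. Just inside it on the lower side were Mycn, Egr2, Klf6 and Gadd45a, and just outside were Fam222a, Arntl, Nuak1, Zfp36l1, Nfkbid, Nr4a1, Socs3 and Ier2, with log2 ratios down to -0.95. On the higher side, Dusp3 and Mir17hg were just inside with 1.01. Usp36, Eif3j2, Rab40c and Fam203a were just outside, with log2 ratios of 0.99, 0.98, 0.97 and 0.94, and Slco4a1, Tsr1 and Nop2 followed with 0.93, 0.92 and 0.92.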

How the data were processed

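Poly(A) RNA, isolated after PeqGOLD TriFast extraction, was sequenced on a HiSeq 2500, per the labels' protocols. These name 2 library kits, TruSeq and NEBNext. Which kit each library had, the aligner, the counting program and the strand counted were not given in the sources used here. CASAVA 1.8.2 and mm10 are named in the submitters' processing notes. The 3 deposited tables hold raw counts of reads per gene and lane, per the file headers, as total and unique exon reads and total and unique gene reads. They also give coordinates and exon length. By these names, reads that map to several places are in the totals only, so copies of a gene can share reads.

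The 4 lanes of each library were summed per feature (38918 listed, 0 columns left unmatched to a sample) and scaled to CPM with Python 3.11.15, pandas 2.3.3 and scipy 1.17.1. The log2 ratio of 1.5 h over 0.5 h was taken after adding 1 CPM. Intervals of ratios are exact (Clopper-Pearson, 95%) and cover counting error only, since PCR copies of a molecule cannot be told from separate molecules. Lane totals ran from 8097902 to 8535084 reads. The control entered no ratio. Reads outside exons are total gene reads minus total exon reads, scaled by the exon total, for genes with at least 20 in either library. Alternatives used TMM factors (edgeR 4.0.16) and DESeq2 1.42.0 size factors, other pseudocounts, floors and folds, unique or gene reads, and each lane left out. The code was tested on simulated data. Overlaps of exons come from the GENCODE annotation of GRCm38.

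The genes named are the 15 with the largest ratio in each direction among those called, all called members of 41 gene lists (891 genes, 882 found, 715 measured at 1 CPM or more), up to 4 members of each list with the largest ratios, and a fixed set of known response genes. Predicted genes were left out of the first part. Not every gene the rule names is described, and other genes of the lists are named as examples. The comparison and the lists were chosen with earlier results of these data known.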

Additional observations from a re-analysis of the deposited data

Results flagged for a closer look

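Among the 4 lanes of a library, a lane was set apart where its gap to the nearest other lane took up most of the range of the lanes. This was so in 4 of the 80 sets of lanes looked at: Egr1 in lane 1 of the 0.5 h library (155 CPM), B3gnt8 in lane 1 of the 1.5 h library (9.26 CPM), Gadd45a in lane 2 of the 1.5 h library (4.98 CPM) and St6galnac4 in lane 3 of the 1.5 h library (46.7 CPM). Chance sets apart about 1 in 20 such groups, which is the share seen here. In none of these 4 genes did the lanes of the libraries overlap.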

How the results depend on the processing

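The main counts were 18 higher and 21 lower genes. Other scalings gave 19 and 19 (TMM) or 19 and 20 (DESeq2), unique reads 16 and 22, total gene reads 24 and 28, and no floor 20 and 24. Larger shifts came from the pseudocount, with 10 higher and 10 lower genes after adding 5 CPM and 32 lower after adding 0.1 CPM, and from the floor, with 12 lower genes at 20 CPM. A limit of 1.5-fold gave 167 higher and 175 lower, one of 4-fold gave 0 higher and 1 lower, and 2879 higher and 2917 lower genes had a counting interval that excluded 1. With each lane left out in turn, 18 to 21 genes were higher and 20 to 24 lower. The replicate block, the mean of the ratios of lanes with the same number, gave 19 and 22. It kept each of the 36 named calls, and the lanes share only a number. No named call changed sign. Of the 36, 19 ended under at least 1 of the other scalings, pseudocounts, read types or lane sets, and 17 held under each of these. Other floors and folds were not scored call by call, and the limit of 4-fold kept only 1 gene. Adding 5 CPM ended 17, those of Adam19, Arhgap25, B3gnt8, Csrnp1, Dusp1, Egr2, Eif1a, Fos, Gadd45a, Ifrd1, Klf16, Klf6, Mir17hg, Mycn, Nlrp3, Ppfia4 and St6galnac4. Unique reads ended those of Adam19, Csrnp1, Gadd45a and Il16. TMM ended the calls of Gadd45a and Klf6, and DESeq2 that of Gadd45a. Total gene reads ended those of Arhgap25, Egr2, Eif1a, Gadd45a, Gpr155, Ifrd1 and Mir17hg. Leaving out 1 lane ended those of Gadd45a, Klf6, Ppfia4, St6galnac4, Mir17hg, Mycn or Egr2, depending on the lane. Of 738 list medians under alternatives, 724 kept their sign. Reads outside exons from unique reads alone, an alternative chosen after seeing the data, put Nr1d1 at 1.04 in place of 1.54 and Hivep2 at 2.49 in place of 1.64. One library per time limits every comparison, since the spread between cultures is unknown.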
